A study of Mus musculus with 12 samples.

Results

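The 10 genes described here encode chemokines, the small secreted proteins that guide leukocytes and microglia along a concentration gradient. They are Ccl2, Ccl3, Ccl4, Ccl5, Ccl12, Cxcl9, Cxcl10, Cxcl12, Cxcl16 and Cx3cl1. They were found by their gene symbols among the 22236 genes of the deposited expected-count table, and all 10 had a row. Their mRNA was measured in the hippocampus of 12 male mice, to ask how lowering Hp1bp3, a chromatin protein that binds heterochromatin protein 1, changes hippocampal transcription on different genetic backgrounds.

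The 4 groups held 3 mice each. B6 Ctrl and B6 KD were C57BL/6J mice, and D2 Ctrl and D2 KD were DBA/2J mice. All 12 mice had received an adeno-associated virus by injection into the hippocampus of both hemispheres, at an age of 3 to 5 months. KD mice received AAV9-shRNA-Hp1bp3, which carries a short hairpin RNA against Hp1bp3, and Ctrl mice received a virus with a scrambled hairpin. Brains were taken at least 6 weeks later. No uninjected mice were analysed here, so every value below is from tissue that had met a virus, and a whole dissected hippocampus mixes cells with and without it. Fewer cells of a type and less RNA per cell cannot be told apart in such tissue.

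Chemokines are named for the spacing of their first cysteines (CC, CXC and CX3C), and they signal through receptors of the G protein-coupled family. In the brain Cx3cl1 is made mainly by neurons, and its receptor Cx3cr1 is carried by microglia, the resident macrophages. Cxcl12 is produced in steady state by meningeal and vascular cells and by some neurons, and acts through Cxcr4 and Ackr3. The others are mostly inflammatory chemokines that are scarce in healthy tissue: interferons, TNF and interleukin 1 switch them on through STAT, IRF and NF-kB factors. Cxcl9 and Cxcl10 bind Cxcr3 on activated T and NK cells, Ccl2 and Ccl12 bind Ccr2 on monocytes, Ccl3 and Ccl5 bind Ccr1, and Cxcl16 binds Cxcr6.

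Most of the 10 genes lie in clusters. By the GENCODE M21 annotation of GRCm38, Ccl2 is at chr11:82035571-82037453 on the plus strand and Ccl12 at chr11:82101845-82103400 on the plus strand. They are 64391 bases apart, with Ccl7 and Ccl11 between them. Further along chromosome 11 are Ccl5 (chr11:83525778-83530518, minus), Ccl3 (chr11:83647844-83649355, minus) and Ccl4 (chr11:83662584-83664683, plus). Ccl3 and Ccl4 are 13228 bases apart with no protein-coding gene lying wholly between them. Cxcl16 (chr11:70453983-70459984, minus) stands alone on that chromosome. Cxcl9 (chr5:92321347-92328079, minus) and Cxcl10 (chr5:92346638-92348889, minus) are 18558 bases apart, again with no protein-coding gene wholly between. Art3, on the plus strand, overlaps Cxcl10. Cxcl12 is at chr6:117168535-117181367 (plus) and Cx3cl1 at chr8:94772009-94782427 (plus).

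The neighbours Cxcl9 and Cxcl10 differed in their values below, and Ccl12 had the smallest adjusted p-value of the 10. The 250 bases before the start of each of these genes are therefore printed, 5′ to 3′ on the strand of the gene, from the RefSeq promoters of GRCm38.p6. They cover chr5:92348890-92349139 (minus) for Cxcl10, chr5:92328080-92328329 (minus) for Cxcl9 and chr11:82101595-82101844 (plus) for Ccl12. Capitals mark matches to 4 short motifs, which were sought as letters alone.
Cxcl10: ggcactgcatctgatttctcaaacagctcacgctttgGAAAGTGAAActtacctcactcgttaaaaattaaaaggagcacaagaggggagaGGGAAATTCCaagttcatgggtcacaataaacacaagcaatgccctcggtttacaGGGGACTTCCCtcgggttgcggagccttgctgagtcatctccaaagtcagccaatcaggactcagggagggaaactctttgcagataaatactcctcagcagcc
Cxcl9: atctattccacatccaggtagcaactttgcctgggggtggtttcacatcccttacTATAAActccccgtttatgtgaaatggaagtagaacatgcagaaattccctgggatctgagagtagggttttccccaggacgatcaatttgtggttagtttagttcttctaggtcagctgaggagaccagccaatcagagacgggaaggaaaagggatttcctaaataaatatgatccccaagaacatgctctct
Ccl12: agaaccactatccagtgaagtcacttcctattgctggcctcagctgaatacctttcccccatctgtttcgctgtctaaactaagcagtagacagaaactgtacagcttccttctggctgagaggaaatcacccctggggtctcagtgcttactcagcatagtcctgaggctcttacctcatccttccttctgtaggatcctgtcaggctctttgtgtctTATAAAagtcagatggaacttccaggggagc
The motifs were the interferon-stimulated response element (GAAANNGAAA), the gamma-activated site (TTCNNNGAA) and the NF-kB motif on both strands, and the TATA box (TATAAA) on the strand of the gene. The Cxcl10 sequence held 1 interferon-stimulated response element, from -213 to -204 counted from the start. It also held 3 NF-kB matches, from -159 to -150, from -104 to -95 and from -103 to -94, of which the last 2 overlap. Of 32851 promoters in the same table, 2.98% held the first of these motifs, 7.02% the gamma-activated site, 7.25% the NF-kB motif and 7.59% the TATA box in a window of this length. The Cxcl9 window held a TATA box from -195 to -190, and the Ccl12 window one from -31 to -26. RefSeq promoters were matched for 6 of the 10 genes. Those of Ccl2, Ccl4, Ccl5 and Cxcl16 were not used here. A match is a string of letters and says nothing of binding in these mice.

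The libraries held 18.2 M to 39.4 M expected counts. Levels are given below as the normalized count deposited by the authors, a linear scale on which libraries of different depth can be compared. Markers of hippocampal neurons were present in all 12 libraries, with the 8 genes summing to between 578 and 1220 CPM (counts scaled to the library total). Choroid plexus, a tissue that borders the hippocampus, differed between dissections: its 8 markers summed to 59.7 to 195 CPM in 5 libraries (B6 Ctrl 1, B6 Ctrl 3, B6 KD 1, D2 Ctrl 1 and D2 KD 2) and to 2760 to 5180 CPM in the other 7. The target itself was lower in every B6 KD library, at 5539, 5429 and 7633 normalized counts of Hp1bp3 against 9372, 8826 and 9348 in B6 Ctrl. In D2 KD it was 5337, 4878 and 6941 against 6871, 6504 and 7002 in D2 Ctrl. The log2 differences, -0.54 ± 0.15 in B6 (adjusted p = 0.076, edgeR) and -0.25 ± 0.15 in D2, were not called. DESeq2 called Hp1bp3 lower in B6 (adjusted p = 0.00825), and edgeR did so without B6 KD 3 (0.0226) or without D2 KD 3 (0.0469). The third library labelled D2 KD thus lay within the range of the D2 controls, and results that rest on it are also given without it.

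Cx3cl1 was by far the most abundant of the 10 per length. Divided by exon length, its level reached 141 ± 11.8 CPM per kb among B6 Ctrl mice, compared with 114 ± 11.6 after KD (mean ± SD over 3 libraries). The D2 means were 130 ± 10.7 CPM per kb for Ctrl and 130 ± 4.44 for KD. Cxcl12 was next in the controls, at 9.58 ± 1.17 CPM per kb in B6 Ctrl and 10.9 ± 1.53 in D2 Ctrl. The other 8 stood below 1 CPM per kb in B6 Ctrl, from 0.137 for Cxcl9 to 0.778 for Ccl12. In B6 KD, Ccl12 reached 14.7 ± 7.03 CPM per kb, Cxcl10 12.3 ± 3.23 and Ccl5 8.43 ± 7.73, beside 7.61 ± 2.22 for Cxcl12.

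**Figure D1:**
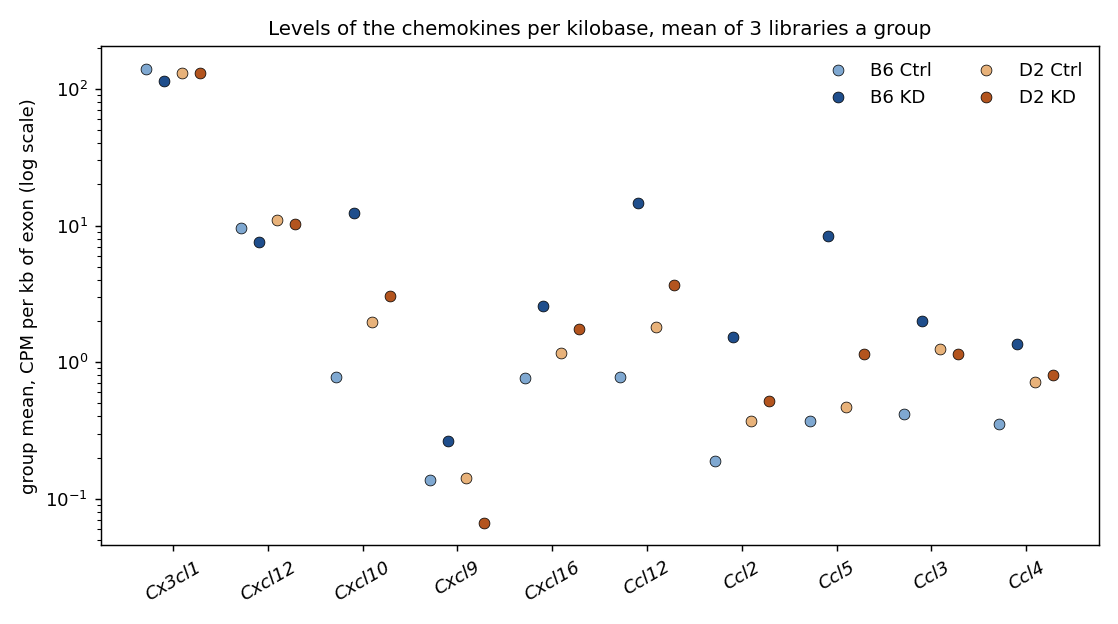
Mean level of each chemokine in each group (n = 3 libraries), in CPM per kb of exon on a log axis; points are group means without error bars, whose SDs stand in the text for the genes named there. Cx3cl1 was highest throughout, between 114 and 141, and Cxcl10, Ccl12 and Ccl5 lay near Cxcl12 in B6 KD.

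The makeup of these transcripts differed between the B6 groups, while the ranges of their sum overlapped. Summed over the 10 genes, the level per length was 148 to 168 CPM per kb in B6 Ctrl and 153 to 173 in B6 KD. Cx3cl1 made up 92.1%, 89.4% and 92.5% of that sum in the B6 Ctrl libraries and 73.2%, 60.0% and 75.1% in the B6 KD libraries. The D2 Ctrl libraries had 90.7%, 88.5% and 82.9%, and the D2 KD libraries 88.1%, 79.6% and 88.8%. All 3 B6 KD libraries were thus below the other 9 in the share of Cx3cl1, and the D2 groups overlapped.

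The steady-state ligands had the smallest differences. Cx3cl1, which tethers and signals to microglia, had 18458, 15600 and 16249 normalized counts in B6 Ctrl and 13191, 12158 and 14677 in B6 KD. In D2 Ctrl it had 16941, 14383 and 15082, and in D2 KD 16037, 14997 and 15220. The B6 groups did not overlap, while the D2 KD values lay inside the range of D2 Ctrl. The edgeR log2 difference of KD minus Ctrl was -0.31 ± 0.10 (SE) in B6, with an adjusted p of 0.112 by the quasi-likelihood test, so Cx3cl1 was not called. The 8 neuron markers, all of them detected, summed to 9380 to 10300 CPM in B6 Ctrl and 7580 to 9210 in B6 KD, without overlap, and to 9160 to 10800 in D2 Ctrl and 9400 to 9670 in D2 KD. edgeR called none of the 8 in B6, where their median log2 difference was -0.17, and their part in the level of Cx3cl1 was not tested.

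Cxcl12, which retains and positions cells through Cxcr4, had 2295, 2678 and 2126 normalized counts in B6 Ctrl and 1988, 2325 and 1249 in B6 KD. In D2 it had 2503, 3145 and 2457 in Ctrl against 2103, 2423 and 2989 in KD. Both strains overlapped, and the low B6 KD mean came largely from 1 library, B6 KD 3. The log2 difference in B6 was -0.33 ± 0.21 (adjusted p = 0.400, edgeR).

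Among the ligands of Cxcr3, Cxcl10 had the highest normalized counts of the inflammatory chemokines in B6 KD. It stood at 70.5, 56.3 and 31.4 in B6 Ctrl and at 675, 1075 and 718 in B6 KD, a 15.6-fold higher mean with no overlap. In D2 Ctrl the values were 30.1, 8.57 and 362, and in D2 KD 163, 407 and 48.8. The D2 groups overlapped through D2 Ctrl 3, a control library above 2 of the 3 KD libraries. The log2 difference in B6 was 3.98 ± 1.10 and the adjusted p 0.0744 (edgeR), which missed the threshold. Cxcl10 shares 133 exon bases with Art3 on the opposite strand, and the strand setting of the counting is not given in the sources used here.

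Cxcl9, the neighbour of Cxcl10 and a target of interferon gamma, was scarcer and did not separate the B6 groups. It had 34.4, 2.30 and 0.872 normalized counts in B6 Ctrl and 36.4, 30.1 and 4.46 in B6 KD. In D2 Ctrl it had 9.40, 0 and 28.8, and in D2 KD 4.22, 6.32 and 7.65. Every group overlapped its control, and the spread within B6 Ctrl was as wide as that within B6 KD. The 0 in D2 Ctrl 2, of 18213084 expected counts, allows up to 0.165 CPM of the unadjusted total (3 counts, counting error only). In B6 the log2 difference of Cxcl9 was 0.86 ± 1.14 (adjusted p = 0.712, edgeR). It depended on B6 Ctrl 1, the control with the most Cxcl9. Without that library it was 3.83, near the 3.98 of Cxcl10 with all libraries, and Cxcl9 was still not called.

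The ligands of Ccr2 had some of the largest differences. Ccl12 had 18.9, 10.3 and 8.72 normalized counts in B6 Ctrl and 107, 285 and 311 in B6 KD, an 18.5-fold higher mean. In D2 Ctrl it had 19.7, 10.3 and 57.7, and in D2 KD 35.8, 115 and 25.8. Ccl12 rose in B6, by 4.21 ± 0.77 on the log2 scale (adjusted p = 0.0361, edgeR), and was the gene with the smallest adjusted p of the 10. It was also the only 1 of the 10 whose D2 KD libraries all lay above the B6 Ctrl libraries, as 15.5% of all genes did.

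Ccl2, the main monocyte attractant, was scarcer. It had 6.56, 10.3 and 2.62 normalized counts in B6 Ctrl and 40.7, 64.1 and 51.3 in B6 KD, a 7.99-fold higher mean. In D2 Ctrl it had 6.58, 3.43 and 27.7, and in D2 KD 15.8, 29.2 and 8.61. The B6 groups were well apart and the D2 groups overlapped, with D2 Ctrl 3 again close to the highest D2 KD library. The log2 difference in B6 was 3.03 ± 0.71, and its adjusted p of 0.0508 (edgeR) lay just past the threshold.

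Among Ccl3, Ccl4 and Ccl5, Ccl5 had the widest spread. Its normalized count was 9.84, 16.1 and 6.10 in B6 Ctrl and 239, 465 and 21.5 in B6 KD. In D2 it was 9.40, 3.43 and 27.7 in Ctrl and 33.7, 53.7 and 11.5 in KD. Ccl5 rose in B6, by 4.52 ± 1.05 on the log2 scale (adjusted p = 0.0495, edgeR), but B6 KD 3, at 21.5, lay far below the other B6 KD libraries and just above the highest B6 control. B6 KD 3 was also the B6 KD library with the most Hp1bp3. Of the 3 B6 KD libraries it was the lowest for 6 of the 10 genes and the highest for 2, Ccl12 and Cx3cl1. The part of the Hp1bp3 level in these values was not tested. Ccl5 is also a T and NK cell product, and Cd3e, a subunit of the T cell receptor complex, had 22.9, 40.6 and 6.69 normalized counts in the same 3 libraries against 0, 2.30 and 0 in B6 Ctrl. Cd3d and Cd3g, of the same complex, were above B6 Ctrl in B6 KD 1 and 2. In B6 KD 3 each was at 1.49, within the range of B6 Ctrl. The part of T cells in the level of Ccl5 was not tested.

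Ccl3 and Ccl4, the neighbouring macrophage inflammatory proteins, had like patterns. Ccl3 had 5.74, 12.6 and 10.5 normalized counts in B6 Ctrl and 51.7, 55.0 and 31.2 in B6 KD. In D2 Ctrl it had 19.7, 17.1 and 49.9, and in D2 KD 26.4, 47.4 and 5.74. It was the only gene of the 10 whose D2 Ctrl libraries all lay above the B6 Ctrl libraries, as 13.9% of all genes did. Ccl4 had 4.10, 9.20 and 7.85 normalized counts in B6 Ctrl and 26.3, 35.3 and 17.8 in B6 KD. Its values were 6.58, 13.7 and 22.2 in D2 Ctrl and 15.8, 30.8 and 0.956 in D2 KD. For both genes the B6 groups did not overlap, the D2 groups did, and D2 KD 3 was the lowest of all 12 libraries, for Ccl3 level with B6 Ctrl 1. The log2 differences in B6 were 2.28 ± 0.68 for Ccl3 (adjusted p = 0.0919) and 1.92 ± 0.81 for Ccl4 (adjusted p = 0.210, edgeR), and neither was called.

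Cxcl16, a transmembrane chemokine that macrophages and endothelium can shed, had 52.5, 122 and 35.7 normalized counts in B6 Ctrl and 247, 291 and 152 in B6 KD. In D2 it had 88.4, 48.0 and 180 in Ctrl and 132, 278 and 66.0 in KD. The B6 groups were separate but close, since B6 Ctrl 2 neared B6 KD 3. The log2 difference in B6 was 1.74 ± 0.62 (adjusted p = 0.143, edgeR). Cxcl16 shares 552 exon bases with Zmynd15 on the opposite strand, and its expected counts were not whole numbers in 11 libraries, so part of its reads was assigned by estimate.

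**Figure D2:**
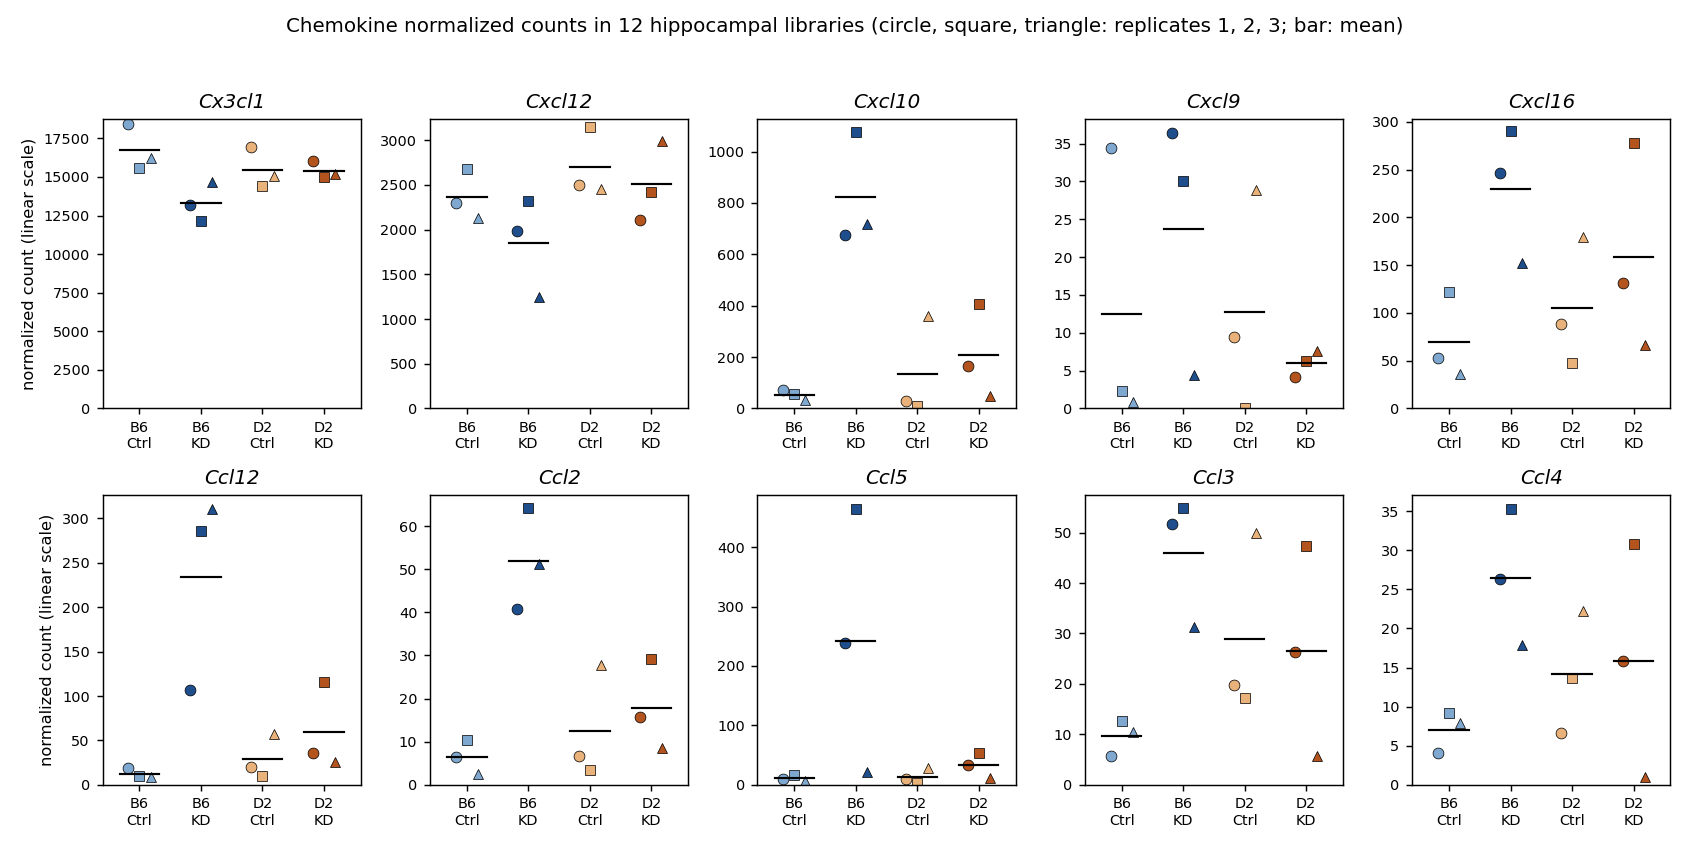
Normalized count (linear axis from 0, a scale of its own for each gene) of each chemokine in each library, with circles, squares and triangles for replicates 1, 2 and 3 and a bar at the group mean. For 7 genes all B6 KD libraries lie above all B6 Ctrl libraries, and for Cx3cl1 all lie below, while no gene separates D2 KD from D2 Ctrl.

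Across the 10 genes in B6, edgeR called 2 higher (Ccl12 and Ccl5) and 0 lower, where 1.76% of the 15853 genes tested were called higher and 0.877% lower. All 10 passed the filter on low counts. The median log2 difference of the 10 was 2.10, against 0.00252 over all genes tested. The B6 KD libraries lay above all B6 Ctrl libraries for 7 genes (Ccl2, Ccl3, Ccl4, Ccl5, Ccl12, Cxcl10 and Cxcl16), where 13.9% of all genes did. They lay below for 1 gene (Cx3cl1), where 14% did. DESeq2 called 6 of the 10 higher (5.77% of all genes), namely Ccl2, Ccl3, Ccl5, Ccl12, Cxcl10 and Cxcl16, and called Cx3cl1 lower (4.88%). limma-voom called Ccl2 and Ccl12 higher (1.43%).

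In D2, edgeR called 0 of the 10, as 0% of all genes were called. At an unadjusted p under 0.05, 452 of 15853 genes passed in D2 and 0 of the 10. DESeq2 called 1 gene and limma-voom 0 in D2, none of them among the 10. No chemokine separated D2 KD from D2 Ctrl, where 2.93% of all genes lay above and 3.03% below. The log2 differences in D2 ran from -1.12 ± 1.28 for Cxcl9 to 1.23 ± 1.02 for Ccl5, and Ccl12 had 0.99 ± 0.70. The standard errors of the 8 inflammatory chemokines in D2 ran from 0.61 to 1.28, so a log2 difference of 1 was under 2 standard errors for each of them. Single libraries set the D2 values. The D2 log2 difference of Cxcl10, 0.61 ± 0.99 with all libraries, was 3.31 without D2 Ctrl 3, 1.07 without D2 KD 3 and -0.37 without D2 KD 2. That of Ccl12 was 1.93 without D2 Ctrl 3, 1.35 without D2 KD 3 and 0.03 without D2 KD 2. No chemokine was called in any of these fits.

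The difference between the strains was tested as an interaction, and 0% of all genes were called. For 8 of the 10 genes the KD minus Ctrl difference had a lower value in D2 than in B6. The interaction was -3.22 ± 1.02 on the log2 scale for Ccl12 (unadjusted p = 0.00952), -3.37 ± 1.44 for Cxcl10, -3.29 ± 1.44 for Ccl5, -2.56 ± 0.99 for Ccl2 and -2.40 ± 0.93 for Ccl3. The adjusted p-values of the 10 were 0.821 or above by edgeR, so a larger effect in B6 than in D2 was not shown. Averaged over the strains, 0% of all genes were called by edgeR, and Ccl12 came closest of the 10 at 2.60 ± 0.52 (adjusted p = 0.0577). Without D2 KD 3 that average had 799 called genes, among them Ccl12 (2.78, adjusted p = 0.0202) and Ccl5 (3.08, adjusted p = 0.0428, edgeR). The interaction of Ccl12 was then -2.86 and the adjusted p-values of the 10 were 0.976 or above. The average also called Ccl5 and Ccl12 without B6 KD 3, and Ccl2, Ccl12 and Cxcl10 without D2 Ctrl 3. Of all genes, 400 and 326 were called in those 2 fits. DESeq2 called Ccl2, Ccl5, Ccl12 and Cxcl10 in that average, where 4.1% of all genes were called higher.

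**Figure D3:**
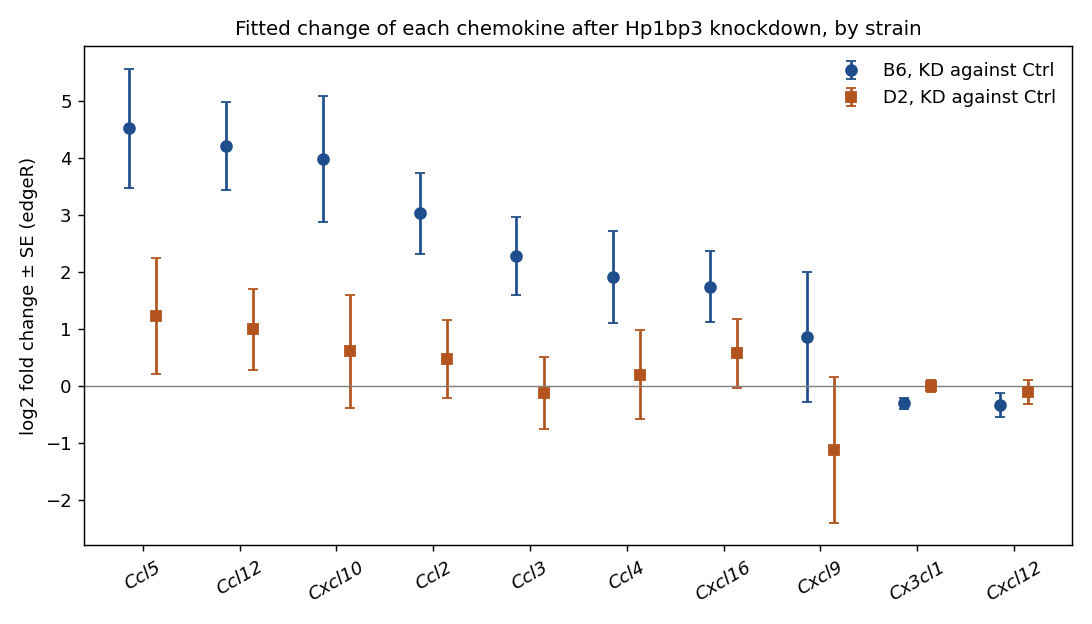
Log2 fold change of KD against Ctrl with its SE for each chemokine, in B6 (circles) and D2 (squares), from edgeR on 12 libraries. In B6 the values run from 4.52 for Ccl5 to -0.33 for Cxcl12, and the D2 values lie nearer 0 for 9 of the 10 genes, with Cxcl9 at -1.12.

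D2 Ctrl was also compared with B6 Ctrl, and edgeR called none of the 10, where 14% of all genes were called. Ccl3 was closest, with a log2 difference of D2 minus B6 of 1.62 ± 0.69 (adjusted p = 0.186). For 6 genes (Ccl2, Ccl4, Ccl5, Ccl12, Cxcl10 and Cxcl16) the group means fell in the order B6 KD, D2 KD, D2 Ctrl and B6 Ctrl from high to low. Neighbours in that order overlapped in most cases: B6 KD lay wholly above D2 KD for Ccl2 and Cxcl10 (15.7% of all genes did), D2 KD above D2 Ctrl for none, and D2 Ctrl above B6 Ctrl for none of the 6.

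The receptors of these ligands were read from a list of 24 chemokine receptors, 21 of which had a row and 12 of which passed the filter. edgeR called none of the 12 in B6, and their median log2 difference was 0.774. Ccr2 had 47.5, 107 and 34.2 normalized counts in B6 KD against 3.28, 23.0 and 3.49 in B6 Ctrl (log2 difference 2.73 ± 0.69, adjusted p = 0.0579). Ccr1, a receptor of Ccl3 and Ccl5, had 17.0, 44.5 and 35.7 against 4.92, 12.6 and 3.49 (2.25 ± 0.57, adjusted p = 0.0591). Both receptors separated the B6 groups, and in D2 their log2 differences were 0.11 and 0.10.

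Cxcr4 and Cx3cr1 had higher counts and smaller differences. The log2 differences in B6 were 1.35 ± 0.37 for Cxcr4 (adjusted p = 0.0744) and 0.62 ± 0.20 for Cx3cr1 (0.107, edgeR). Cx3cr1 had 3217, 2918 and 2246 normalized counts in B6 KD and 1962, 1869 and 1704 in B6 Ctrl, so the receptor was higher in the libraries in which its ligand Cx3cl1 was lower. Cxcr3 and Cxcr6 were too scarce to be tested, with 0 to 23 and 1 to 17 expected counts per library. Ackr3 was not analysed here. The only receptor calls were between strains: Ccr6 was higher in D2 Ctrl than in B6 Ctrl by 6.40 ± 0.75 and Cxcr2 by 2.51 ± 0.12 on the log2 scale (adjusted p = 0.00012 and 9.01e-08, edgeR). These were 2 of the 12 receptors tested, where 14% of all genes were called in that comparison.

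Of the 15 genes of chemokine signalling and shedding, all passed the filter and edgeR called none in B6, with a median log2 difference of 0.267. The metalloproteases that shed Cx3cl1 and Cxcl16 from the membrane were among them. Adam10 had a log2 difference of 0.48 ± 0.21 (adjusted p = 0.233) and Adam17 of 0.47 ± 0.12 (adjusted p = 0.0575, edgeR). Adam17 had 959, 1085 and 781 normalized counts in B6 KD against 627, 685 and 747 in B6 Ctrl, without overlap.

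The known inducers of these chemokines had the most calls of the pathway lists. From a list of 22 cytokines, transcription factors and regulators of their signalling, 19 passed the filter. In B6 edgeR called 9 of them higher, where 1.76% of all genes were, and 0 lower, with a median log2 difference of 1.50. The called genes included Irf7 (4.69 ± 0.71), Tnf (3.36 ± 0.76), Il1b (2.83 ± 0.65), Il1a (1.88 ± 0.38), Irf9 (1.73 ± 0.32), Irf8 (1.61 ± 0.35), Nfkb2 (1.50 ± 0.28) and Stat2 (1.40 ± 0.22), with adjusted p-values from 0.0326 to 0.0479. Stat2 and Irf9 act in the response to type I interferon, and Irf7 amplifies it. Irf7 had 2132, 3328 and 883 normalized counts in B6 KD against 92.7, 100 and 57.5 in B6 Ctrl. In D2 it had 662, 842 and 144 in KD against 107, 129 and 262 in Ctrl, so the D2 groups overlapped through D2 KD 3 and D2 Ctrl 3.

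Ifng and Ifnb1, the only interferon genes on the list of inducers, were near 0. Other interferon genes were not examined here. Ifng had 0 to 2 and Ifnb1 0 to 1 expected counts in every library. D2 Ctrl 3 had 362 normalized counts of Cxcl10 with 262 of Irf7, while D2 KD 1 had 163 of Cxcl10 with 662 of Irf7. The order of the D2 libraries thus differed between the chemokine and the interferon-regulated factor. In the strain comparison of controls, Irf3 was lower in D2 by 0.46 on the log2 scale (adjusted p = 0.0078, edgeR), and no other gene of this list was called. Of all genes, 14% were called in that comparison.

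Other chemokine ligands, 30 on the list with 28 in the table and 19 tested, had a median log2 difference of 1.01 in B6. edgeR called 1 higher and 1 lower. Cxcl5, a neutrophil attractant, rose, with 115, 215 and 49.0 normalized counts in B6 KD against 10.7, 34.5 and 24.4 in B6 Ctrl (2.47 ± 0.56, adjusted p = 0.0477). Cxcl14, which interneurons express, fell, with 1484, 1351 and 1359 against 2290, 2015 and 1834 (-0.53 ± 0.09, adjusted p = 0.0359). Ccl7, which lies between Ccl2 and Ccl12, was named after its value was seen: its log2 difference was 3.00 ± 0.71 (adjusted p = 0.0512). By strain, Ccl21a was higher in D2 Ctrl by 3.87 ± 0.98, and Ccl27a and Ccl28 were lower by 0.79 and 4.02 on the log2 scale, each called by edgeR. That strain comparison called 14% of all genes. Ccl21a belongs to a family of near-identical copies, so its reads may have been split among them.

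Summed markers of microglia and of monocytes also lay above the B6 controls in all B6 KD libraries. All 14 microglia markers were detected, and they summed to 550 to 622 CPM in B6 Ctrl, 785 to 1290 in B6 KD, 484 to 791 in D2 Ctrl and 498 to 859 in D2 KD. edgeR called 1 of the 14, Itgam, in B6. The 6 monocyte markers summed to 1.40 to 4.09 CPM in B6 Ctrl and 13.5 to 20.1 in B6 KD, and to 1.58 to 4.33 in D2 Ctrl and 2.28 to 9.52 in D2 KD. Of the 5 that passed the filter, Plac8 was called in B6. The T and NK cell markers summed to 528 to 584 CPM in B6 Ctrl and 425 to 513 in B6 KD. That sum holds Thy1, which neurons also express. Without Thy1, a choice made after the levels were seen, the markers summed to 2.52 to 3.75 CPM in B6 Ctrl and 3.95 to 14.2 in B6 KD. In D2 they then summed to 2.04 to 3.07 CPM in Ctrl and 2.47 to 4.08 in KD. The 7 neutrophil markers summed to 0.289 to 1.99 CPM in B6 Ctrl and 0.504 to 4.03 in B6 KD, with overlap. The 7 astrocyte markers summed to 5330 to 6170 CPM in B6 Ctrl and 6060 to 7930 in B6 KD, also with overlap. edgeR called 1 of these 7 higher in B6, where 1.76% of all genes were, and 0 lower. In B6 KD, 3 of the 7 lay above all B6 Ctrl libraries and 1 below, where 13.9% and 14% of all genes did. No marker of these lists was at 0 in all libraries.

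The part of these cells in the chemokine levels was not tested, but the sizes can be set side by side. Per 100 CPM of summed microglia markers, Cxcl10 stood at 0.373, 0.302 and 0.189 CPM in B6 Ctrl and at 1.75, 2.90 and 3.10 in B6 KD. On that scale the B6 KD mean was 8.99-fold that of B6 Ctrl for Cxcl10, 11.5-fold for Ccl12, 11.3-fold for Ccl5, 4.73-fold for Ccl2, 2.59-fold for Ccl3 and 2.04-fold for Ccl4, and these groups did not overlap, as for 2.05% of all genes on that scale. Cxcl16 was 1.82-fold higher and overlapped, and Cxcl9 was at 0.979 of its control level. In D2 the means of Cxcl10 were 0.583 CPM in Ctrl and 0.913 in KD, and those of Ccl12 were 0.140 and 0.267. This scaling was chosen after the levels were seen.

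Choroid plexus content split both B6 groups. Among the libraries with little of it, B6 KD 1 had 675 normalized counts of Cxcl10 against 70.5 and 31.4 in B6 Ctrl 1 and 3. Among those with much, B6 KD 2 and 3 had 1075 and 718 against 56.3 in B6 Ctrl 2. For Ccl12 the same comparisons were 107 against 18.9 and 8.72, and 285 and 311 against 10.3. In D2 the low-choroid pair was D2 KD 2, with 407 normalized counts of Cxcl10, and D2 Ctrl 1, with 30.1. The other D2 libraries had 163 and 48.8 in KD against 8.57 and 362 in Ctrl.

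In the D2 groups most of the inflammatory chemokines were high or low in the same library. D2 Ctrl 3 was the highest of its group for 8 of the 10 genes (all but Cxcl12 and Cx3cl1), and D2 KD 2 the highest of its group for 7. D2 KD 3 was the lowest of its group for those same 7 genes (Ccl2, Ccl3, Ccl4, Ccl5, Ccl12, Cxcl10 and Cxcl16). B6 KD 2 had the highest value of all 12 libraries for 6 genes (Ccl2, Ccl3, Ccl4, Ccl5, Cxcl10 and Cxcl16) and the lowest for Cx3cl1. Within the B6 groups, B6 KD 2 was the highest of its group for 7 of the 10 genes and B6 Ctrl 3 the lowest of its group for 7. B6 KD 3 was the highest of all 12 for Ccl12 and the lowest of its group for Ccl5, Ccl3, Ccl4 and Cxcl16. In B6 Ctrl the highest library was B6 Ctrl 2 for Ccl2, Ccl3, Ccl4, Ccl5 and Cxcl16 and B6 Ctrl 1 for Ccl12, Cxcl9 and Cxcl10.

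Over the 12 libraries, log2(CPM + 1) of Ccl2 had a Pearson r of 0.977 with Cxcl10 and 0.966 with Ccl12, and Ccl3 one of 0.953 with Ccl4. Cxcl9 had 0.532 with Cxcl10. Of 14180 other genes with a mean of at least 1 CPM, the 3 most like Cxcl10 were Rab32 (r = 0.983), Ogfr (0.973) and Lgmn (0.967). Those most like Ccl12 were Gpr84 (0.961), Nfkb2 (0.959) and Tgm1 (0.955), and those most like Cx3cl1 were Dpf1 (0.958), Rtf1 (0.940) and Sept5 (0.939). These values are descriptions, since the 12 libraries fall into groups and the genes share libraries and depth.

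**Figure D4:**
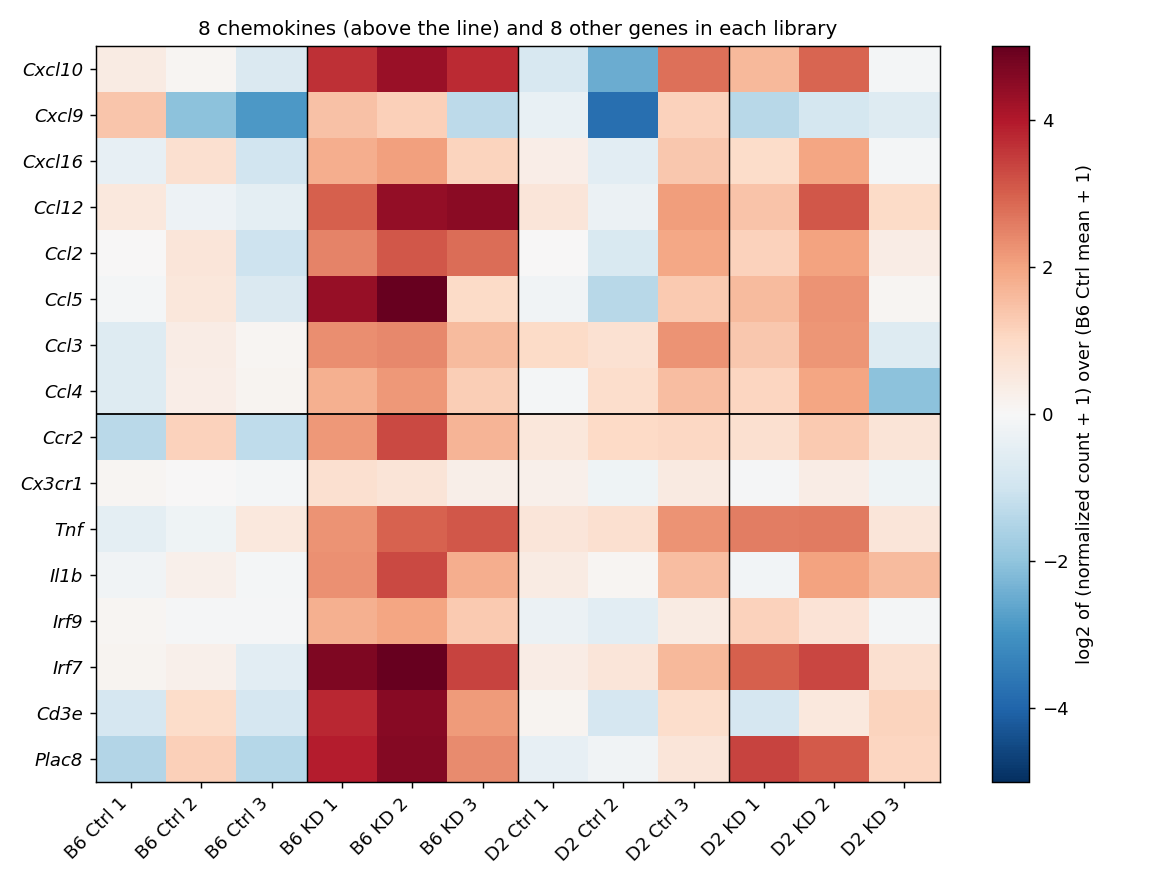
Log2 of the normalized count plus 1 over the B6 Ctrl mean plus 1, for 8 inflammatory chemokines (above the line) and 8 receptors, inducers and markers (below) in each of the 12 libraries; red is above and blue below the B6 Ctrl mean, and the colour stops at 5. The 3 B6 KD columns are red for all rows but Cxcl9, which is blue in B6 KD 3, and D2 Ctrl 3 is red among the D2 controls. The rows below the line were picked as genes that moved with the chemokines, so their colour is no separate evidence. Genes of the same lists that did not rise in B6, such as Irf3 and Ccr10, are not shown.

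The calls were near the threshold and changed with single libraries. Ccl12 was called in B6 in 5 of the 12 fits that left out a library, and Ccl5 in 3. Leaving out any 1 of B6 Ctrl 1, B6 Ctrl 2, B6 Ctrl 3, B6 KD 1, B6 KD 2, D2 Ctrl 1 or D2 Ctrl 2 ended both calls, and leaving out D2 KD 1 or D2 KD 2 ended that of Ccl5. The adjusted p over these fits ran from 0.0209 to 0.178 for Ccl12 and from 0.0138 to 0.205 for Ccl5. Without B6 KD 3, Cx3cl1 was called as well, and lower (-0.42, adjusted p = 0.0471, edgeR). Of all genes, 299 were called lower in that fit, against 139 with all libraries. Without D2 KD 3, Ccl2, Ccl3, Ccl5 and Ccl12 were called, and without D2 Ctrl 3, Ccl2, Ccl5, Ccl12 and Cxcl10. More genes were called over the whole table as well: 458 and 403 were higher in B6, against 279 with all libraries. The log2 difference in B6 stayed between 3.91 and 4.60 for Ccl12 and between 3.62 and 5.04 for Ccl5. The 9 called inducers were called in 3 to 7 of these 12 fits, Cxcl5 in 3 and Cxcl14 in 6.

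**Figure D5:**
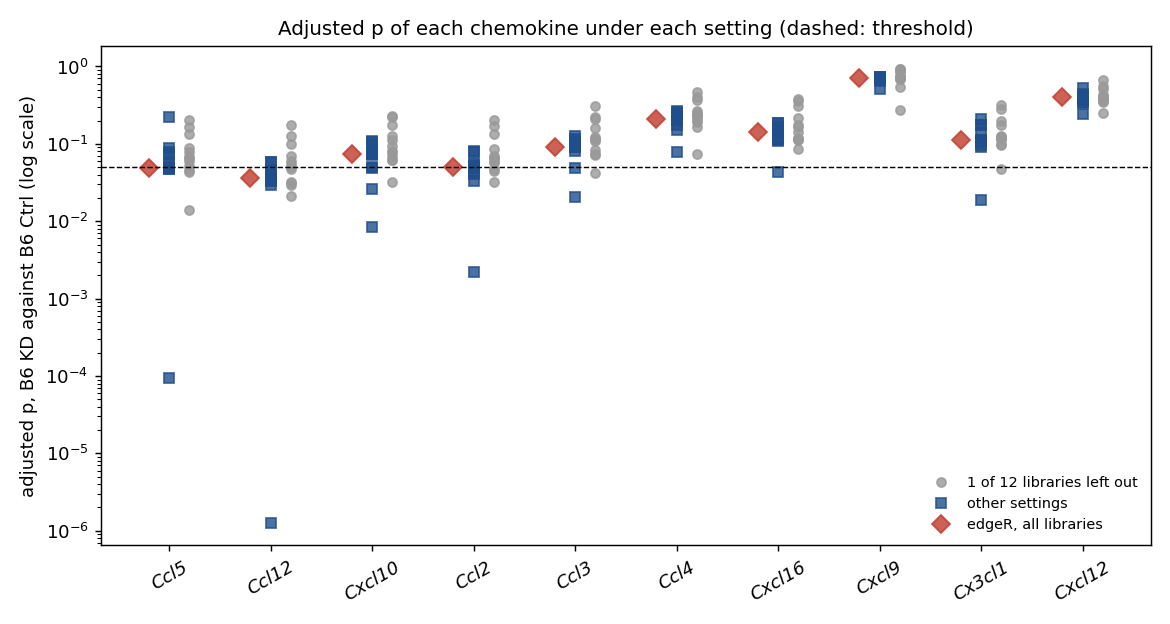
Adjusted p of each chemokine for B6 KD against B6 Ctrl on a log axis, by edgeR with all libraries (diamonds), under the other settings (squares) and with 1 of 12 libraries left out (circles); the dashed line is the threshold of 0.05. The lowest square is that of DESeq2 for all genes but Ccl4, Cxcl9 and Cxcl12, whose points all lie above the line. The other genes, Ccl12 and Ccl5 among them, have points on both sides of it.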

How the data were processed

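Hippocampal mRNA was sequenced from 12 mice (3 per strain and treatment), and libraries were grouped by the strain and treatment labels. Replicate numbers follow the order of deposit and pair nothing. In that order KD came before Ctrl in B6 and after it in D2.

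The authors trimmed reads and aligned each mouse to its own strain's genome with Bowtie2 2.2.0 (GRCm38 in the submitters' processing notes) and quantified genes with RSEM 1.2.12. The deposited expected counts are these estimates per gene, not normalized. A second deposited file holds the authors' DESeq2 normalized count of each gene (a signal, comparable between libraries). It equalled the truncated expected count over 1 size factor per library (0.584 to 1.35) for 100% of 266508 values within 0.01 reads. Every sample was sequenced a second time because barcodes had clashed at first; the runs were joined where both were usable, and which libraries hold 1 run is not given. The annotation release is not given in the sources used here. Positions are from GENCODE M21 by Ensembl identifier, and 27 symbols that had become dates were restored. No column of per-sample values was left unused.

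Expected counts were rounded to whole numbers, filtered with filterByExpr over the 4 groups and tested by quasi-likelihood in edgeR 4.0.16 (F-test, R 4.3.3; TMM, robust estimation, the installed default method), with 1 mean per group and spread shared by all libraries. Benjamini-Hochberg adjusted p-values under 0.05 over 15853 genes were called. Standard errors were the log2 fold change over the square root of F and are approximate. DESeq2 1.42.0, limma-voom 3.58.1, other scalings, filters, covariates, within-strain fits and leaving out each library were alternatives. Scripts were tested on simulated counts.

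The 10 genes and all lists were chosen with earlier results of these data known. Genes named were the 10, their receptors, Adam10, Adam17, Hp1bp3, list genes called in any comparison (at most 8 a list) and the 3 genes of most like pattern. A few genes that this rule names are not reported here. Each p-value sets a difference of group means against the spread between these mice, as estimated in the fit.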

Additional observations from a re-analysis of the deposited data

How the results depend on the processing

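In B6, 418 genes and 2 of the 10 chemokines were called. DESeq2 called 1688 genes and 7 chemokines, the newer quasi-likelihood method of edgeR 612 and 4, and a fit on the B6 libraries alone 292 and 4. Scaling by total counts, and leaving out the filter on low counts, each kept 1 chemokine, Ccl12. With the library total or the choroid plexus score as a covariate, 0 genes and 0 chemokines were called. In those fits the adjusted p of Ccl12 was 0.0576 and 0.0578, at log2 differences of 4.33 and 4.38. The share of calls that were higher was 66.7% in the full fit, 81.1% by total counts and 54.2% by DESeq2. Leaving out 1 library gave 0 to 790 genes and 0 to 4 chemokines in B6. Averaged over strains it gave 0 to 799 genes (799 without D2 KD 3) and 0 to 3 chemokines (3 without D2 Ctrl 3), against 0 and 0. DESeq2 gave 1241 genes and 4 chemokines in that average and the newer method 15 genes. DESeq2 called 1 gene in D2 and 11 in the interaction, and leaving out D2 KD 3 gave 1 gene in D2. Truncated counts, an alternative added after seeing the data, called 425 genes in B6, with Ccl5 and Ccl12 among them.

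Signs turned only for differences that were not called. In D2, limma-voom gave -0.47 for Ccl4 and 0.00149 for Cx3cl1, total counts gave 0.0229 and the D2 libraries alone 0.00144 for Cx3cl1. With the library total as a covariate Cxcl12 was at 0.10 in D2 and at -0.0124 between the control strains. limma-voom gave 0.73 for Cxcl9 averaged over strains. Over the libraries left out, the D2 log2 differences ran from -0.10 to 1.76 for Ccl2, -0.88 to 0.53 for Ccl3, -0.77 to 0.74 for Ccl4, -0.37 to 3.31 for Cxcl10, -0.12 to 1.18 for Cxcl16, -0.0536 to 0.0554 for Cx3cl1, -0.25 to 0.0148 for Cxcl12 and -1.62 to 0.15 for Cxcl9. Between the control strains they ran from -0.26 to 1.47 for Ccl2, -0.58 to 0.81 for Ccl5, -1.33 to 1.90 for Cxcl10 and -1.22 to 3.05 for Cxcl9. The lowest of these were without D2 Ctrl 3. Averaged over strains, Cxcl9 ran from -0.42 to 1.35. The cause was not tested.

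No chemokine failed the filter on low counts over the 4 groups, so the test planned for such genes was not needed. Cxcl9 failed it in the fit on D2 libraries alone, which gave it no value. Scarce genes limit the precision most: Ccl2, Ccl4 and Cxcl9 had as few as 2, 1 and 0 expected counts in a library.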
